A study of Mus musculus with 24 samples.

Results

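The brain endothelium of control mice was compared between postnatal day 9 (P9) and adulthood, in 6 of the 24 RNA-sequencing libraries of a study of the transcription factor Sox17 in the brain vasculature. The 6 libraries were those that the sample labels place in the P9 and adult control groups, 3 per group, and no measured value entered their choice. The animals, called wild type here as in the labels, carried Sox17flox/flox alleles and lacked the Cdh5(PAC)-Cre-ERT2 driver, so both Sox17 copies were floxed and not recombined by it. Pups received 100 µg of tamoxifen, the drug that activates the recombinase, on postnatal day 1. The adults, given as 6 weeks old, received 4 injections of 1.5 mg and were collected 1 week after the last. Age, tamoxifen schedule and time since tamoxifen cannot be told apart between the groups. Brains of both ages were dissociated with the same adult brain kit, freed of myelin debris and red cells, depleted of CD45-positive leukocytes and enriched on beads for CD31, the product of Pecam1. The result is an enriched cell fraction and not a pure population. The labels call the 3 samples of a time point independent biological replicates, without giving the number of animals in each.

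Brain capillary endothelial cells form the blood-brain barrier: tight junctions made with claudins close the clefts between cells, vesicle traffic is kept low, and membrane carriers bring in glucose, amino acids, hormones and vitamins while ATP-driven pumps return drugs to the blood. Canonical Wnt signalling, received by frizzled and Lrp co-receptors with Gpr124 (Adgra2) and Reck and acting through beta-catenin and Lef/Tcf factors, induces and maintains this state. In the mouse the vessel network of the brain is still sprouting and dividing in the second week after birth, and in the adult nearly all of its endothelial cells are at rest. Notch signalling between sprouting tip cells and the stalk cells behind them, together with SoxF factors such as Sox17, also sets arterial identity.

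Depth ranged from 12994509 to 18423936 counts per library, with 20549 to 21147 genes detected, and 3 counts, the limit that a count of 0 allows, corresponded to 0.163 to 0.231 CPM, counts scaled to the size of the library. Intervals and limits cover counting error only. Log-scale profiles correlated at Pearson's r of 0.987 to 0.990 between libraries of a group and 0.888 to 0.902 across groups (17159 genes, which are not independent). The first principal component held 86.9% of the variance and separated the ages, and the second, with 3.6%, set adult library 1 apart from adult library 3. Below, CPM are scaled by the trimmed mean of M values (TMM), a mean is followed by its SD (n = 3), and a log2 fold change, adult minus P9, by its SE.

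The labelled cell type was checked first. Pecam1 was at 1294, 1315 and 1275 CPM in the P9 libraries and 1021, 954 and 959 CPM in the adult libraries, Cdh5 (VE-cadherin of the adherens junction) at 1035, 1023 and 1011 CPM in the P9 libraries and 702, 705 and 645 CPM in the adult libraries, and Cldn5 (the main claudin of brain endothelial tight junctions) at 5459, 5834 and 5592 CPM in the P9 libraries and 3909, 4257 and 3821 CPM in the adult libraries. All 3 defining genes were high in all 6 libraries, and Cdh5 and Cldn5 were lower in every adult library than in any P9 library. Markers of other cell types were present too, and their levels moved with age. The 9 oligodendrocyte markers, among them the myelin gene Mbp, all rose and summed to 1119 to 2006 CPM at P9 and 23470.0 to 28567 CPM in the adult libraries. Mbp alone was at 266, 452 and 335 CPM in the P9 libraries and 2875, 3128 and 3506 CPM in the adult libraries.

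Microglia markers rose for 9 of 10 genes and summed to 55.1 to 64.5 CPM at P9 and 173 to 403 CPM in the adult, with adult library 1 highest, while Cx3cr1 and P2ry12, markers of that list, were at 31.3 ± 12.3 and 8.105 ± 2.54 CPM in the adult. Astrocyte markers rose for 6 of 8 and fell for 1, at 549 to 629.6 CPM at P9 and 1573 to 2428 CPM in the adult with library 3 highest. Neuron markers rose for 5 of 8, and their sums were 143 to 163 CPM at P9 and 328 to 485 CPM in the adult. Choroid plexus and ependyma markers rose for 4 of 7, at 1692 to 2534 CPM at P9 and 5475 to 6302 CPM in the adult. Of these, Ttr (transthyretin) lost its call whichever of the 6 libraries was left out (adjusted p 0.052 to 0.10). Pericyte markers fell for 10 of 10 and summed to 2949 to 4021 CPM at P9 and 557 to 682 CPM in the adult, and fibroblast markers fell for 5 of 6 and summed to 333 to 440.2 CPM at P9 and 61.6 to 72.4 CPM in the adult. Red cell markers were still present after the removal step, at 1554 to 1772 CPM at P9 and 1284 to 1485 CPM in the adult, and 4 of 7 fell. Oligodendrocyte precursor markers rose for 4 of 6 and fell for 2, at 338 to 390 CPM at P9 and 1092 to 1374 CPM in the adult. The 2 that fell were Pdgfra, also on the fibroblast list, and Cspg4, also on the pericyte list. The endothelial identity list itself, 25 genes, summed to 21493 to 22120.4 CPM at P9 and 16361 to 17919 CPM in the adult. In bulk libraries, fewer cells of a type and less RNA per cell cannot be told apart.

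**Figure D1:**
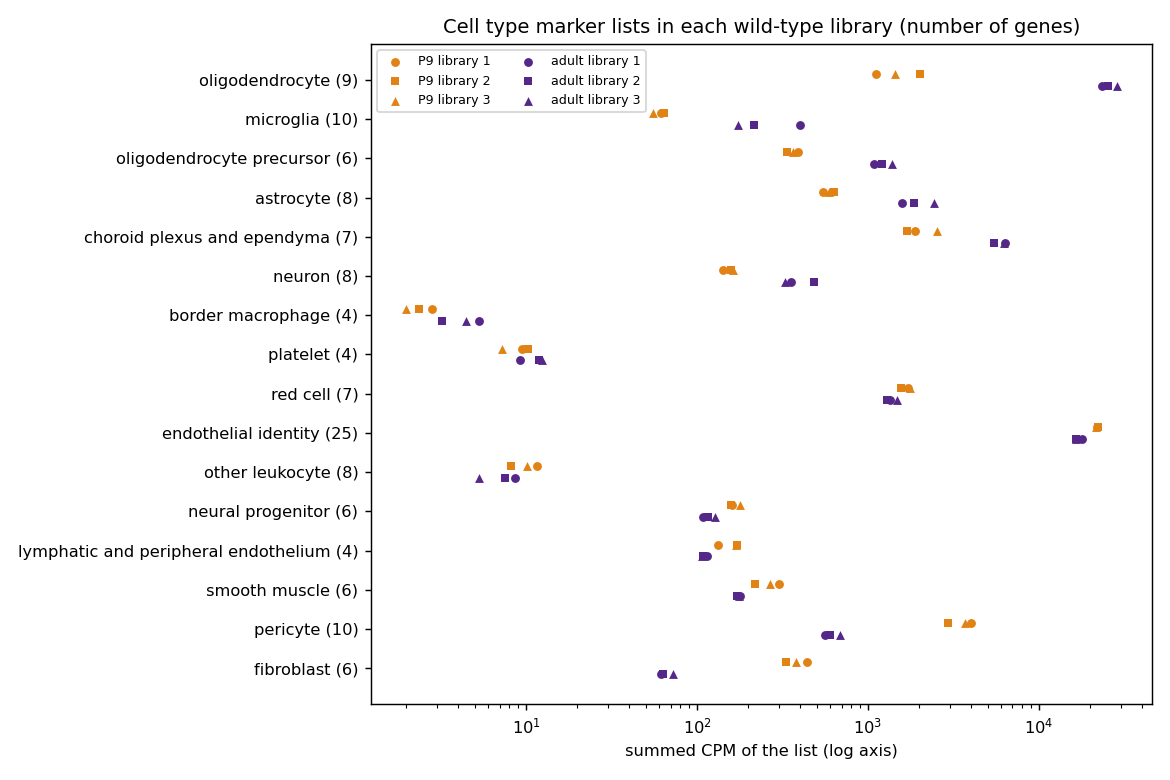
Summed CPM (log axis) of each cell type marker list in each of the 6 wild-type libraries, with the number of genes in brackets; each point is 1 library. Oligodendrocyte, microglia and astrocyte sums are higher in the 3 adult libraries, and pericyte and fibroblast sums are higher in the 3 P9 libraries.

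Of 17159 genes tested with edgeR's quasi-likelihood test, 10485 (61.1%) passed an adjusted p of 0.05 between P9 and adult, and these are the genes said below to rise or fall. They split into 5294 (30.9%) that rose and 5191 (30.3%) that fell. Rises of more than 2-fold numbered 3249 and falls of more than 2-fold 2139, and 470 rises and 288 falls exceeded 8-fold. The libraries of the groups did not overlap for 12375 genes (72.1%). Calls held in all 6 fits that left out 1 wild-type library for 8505 genes.

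Because the myelin transcripts took a larger part of the adult libraries, every comparison was also made after scaling each library to the summed counts of the 25 endothelial identity genes, called endothelial scaling below. It moved the median log2 change of all genes from 0.02 to 0.37. The split became 7488 higher (43.6%) and 2802 lower (16.3%), with 60.0% called. All 5294 rises remained called, as did 2802 of the 5191 falls, and no call reversed. Endothelial scaling shifted the log2 changes of this step upward, by a median of 0.37, so it could hardly end a rise. Only the falls were put at risk by it, and a rise under both scalings says little more than a rise under TMM. A list is described below by its counts, to be read against these shares, and its counts with endothelial scaling are given where they change its lean or where its members lose calls.

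**Figure D2:**
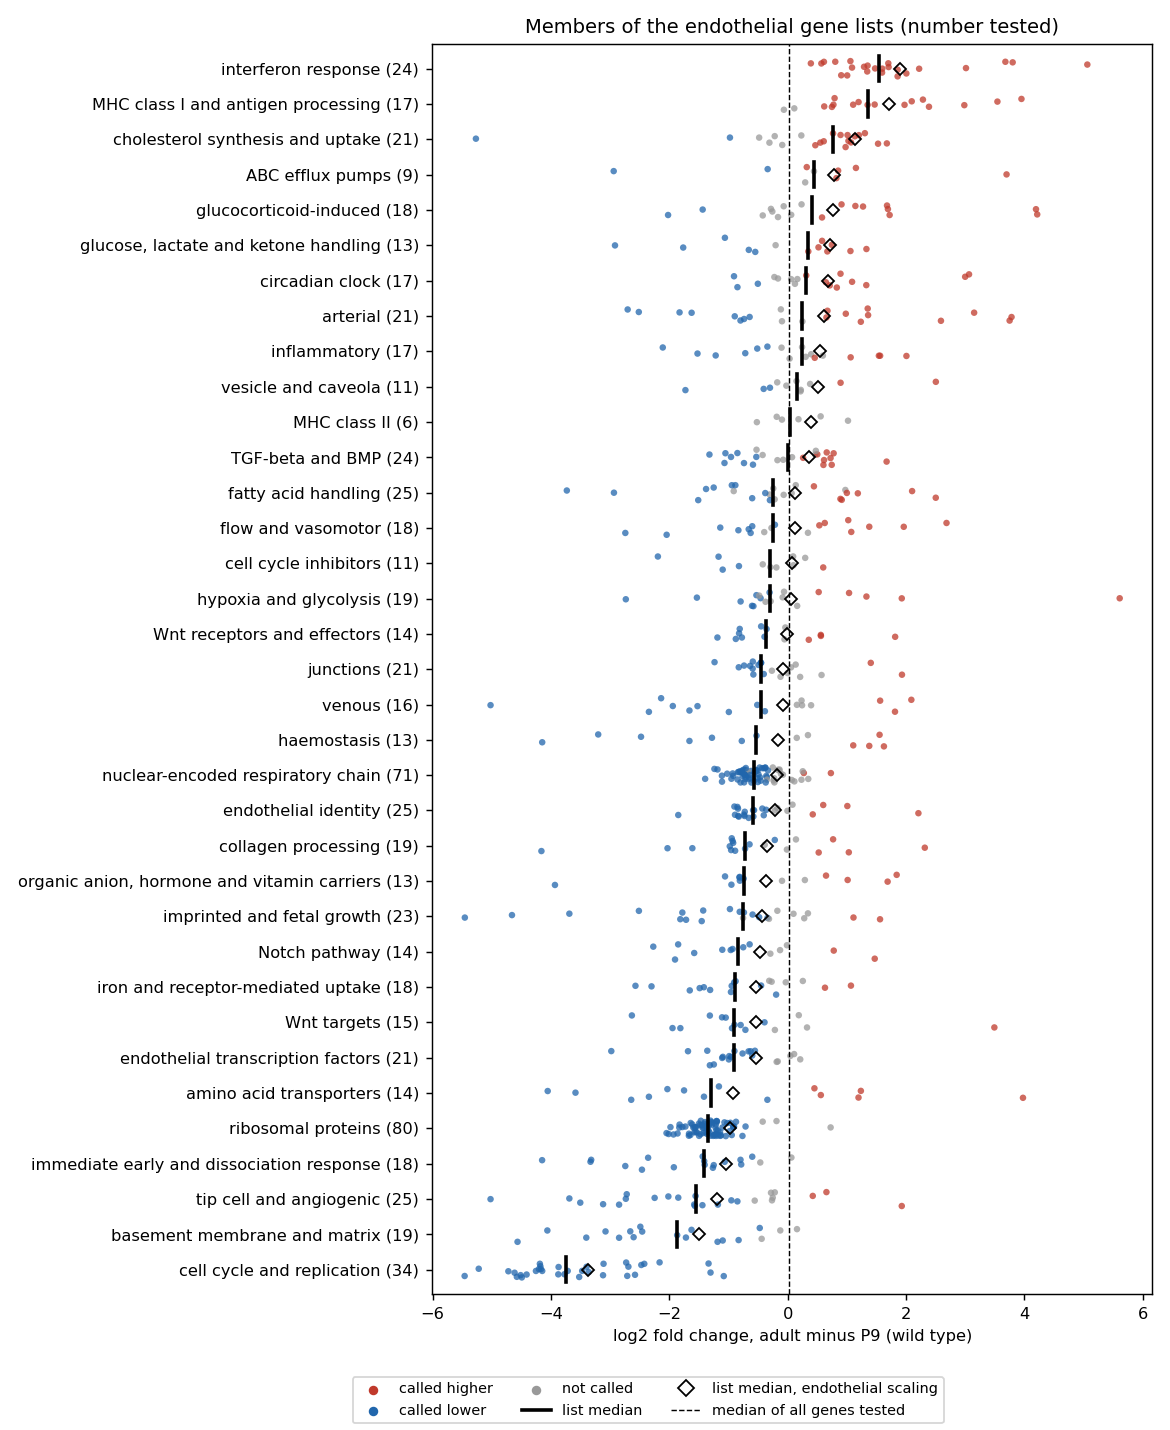
Log2 fold change (adult minus P9) of every tested member of the endothelial gene lists, with the number tested in brackets; red and blue points passed the test, bars are list medians under TMM scaling, diamonds are medians with endothelial scaling, and the dashed line is the median of all genes. Cell cycle, basement membrane and ribosomal genes lie to the left and interferon and MHC class I genes to the right under both scalings, while the medians of 5 lists (cell cycle inhibitors, fatty acid handling, TGF-beta and BMP, flow and vasomotor, hypoxia and glycolysis) change sign with the scaling.

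Genes of cell division fell together. All 34 members of the cell cycle and replication list fell, also with endothelial scaling, with a median log2 change of -3.75 and a range from -5.46 to -1.08, where the median of all genes was 0.02. The list's summed level was 2115 to 2231 CPM at P9 and 272 to 318 CPM in the adult libraries.

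Cdk1, the kinase that drives entry into mitosis (ENSMUSG00000019942, chr10:69336635-69352938, minus strand on mm10), and Ube2c, the ubiquitin-conjugating enzyme of the anaphase-promoting complex, had the lowest adult to P9 ratios of the list. Their promoters are shown for the size of these changes. Both hold CCAAT boxes and the CHR letters TTTGAA, the pair of elements typical of genes transcribed in G2 and mitosis. The lines give the 250 bases before the start in RefSeq (build GRCm38.p6), for Cdk1 at chr10:69352913-69353162 on the minus strand and for Ube2c at chr2:164769679-164769928 on the plus strand, 5′ to 3′ along the gene. Capitals mark matches on either strand to the CCAAT box, to the CHR letters TTTGAA and to TTTNGCGC, an E2F-type motif.
Cdk1: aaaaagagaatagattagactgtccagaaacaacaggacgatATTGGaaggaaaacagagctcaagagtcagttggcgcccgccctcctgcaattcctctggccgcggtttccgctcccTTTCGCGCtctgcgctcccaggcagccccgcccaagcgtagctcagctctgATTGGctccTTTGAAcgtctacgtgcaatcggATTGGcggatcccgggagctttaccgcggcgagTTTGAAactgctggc
Ube2c: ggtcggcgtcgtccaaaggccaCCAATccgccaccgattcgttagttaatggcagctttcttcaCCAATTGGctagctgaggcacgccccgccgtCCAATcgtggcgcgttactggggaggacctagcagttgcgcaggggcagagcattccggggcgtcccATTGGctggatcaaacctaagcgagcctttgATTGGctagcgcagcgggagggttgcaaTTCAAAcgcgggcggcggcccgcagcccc
Of the 34 genes that fell, 28 had a promoter entry, and 23 of these (82.1%) held CCAAT, against 34.5% of 27025 promoters of the same length. TTTGAA was found in 9 (32.1% against 16.3%), both motifs in the same 9 (32.1% against 5.73%), and TTTNGCGC in 3 (10.7% against 1.15%). These are counts of letters in the windows, not of bound factors.

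Cdk1 was at 89.5, 89.1 and 88.5 CPM in the P9 libraries and 2.36, 1.64 and 1.73 CPM in the adult libraries (log2 -5.46 ± 0.15, adjusted p = 2.5e-17). Ube2c was at 48.5, 39.3 and 45.5 CPM in the P9 libraries and 1.22, 1.16 and 0.833 CPM in the adult libraries (log2 -5.22 ± 0.25, adjusted p = 2.5e-14). Mki67, the Ki-67 proliferation antigen, was at 189.9, 194 and 195 CPM in the P9 libraries and 11.6, 8.15 and 10.3 CPM in the adult libraries (log2 -4.25 ± 0.19, adjusted p = 8.3e-15). In each of these genes the 3 P9 libraries lay many-fold above the adult ones, with no overlap. Aurkb, a kinase of the chromosomal passenger complex, fell from 37.7 ± 2.11 to 1.32 ± 0.614 CPM (log2 -4.72 ± 0.26), cyclin Ccnb1 from 29.7 ± 3.24 to 1.09 ± 0.226 CPM (log2 -4.62 ± 0.21), and Rrm2, the small subunit of ribonucleotide reductase, from 93.7 ± 11.8 to 3.83 ± 0.933 CPM (log2 -4.58 ± 0.26). The replicative helicase subunits changed less, with Mcm2 at log2 -2.47 ± 0.14, Mcm7 at log2 -1.34 ± 0.15 and Mcm4 at log2 -1.304 ± 0.11, and the sliding clamp Pcna fell least, from 114 ± 7.18 to 53.8 ± 4.55 CPM (log2 -1.08 ± 0.12).

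Of 11 inhibitors of the cell cycle tested, 1 rose and 4 fell, and with endothelial scaling 4 rose and 4 fell. The retinoblastoma relative Rbl2 rose from 40.9 ± 0.738 to 61.98 ± 3.03 CPM (log2 0.60 ± 0.103), and its relative Rbl1, which is itself expressed in dividing cells, fell from 28.5 ± 0.325 to 12.6 ± 0.847 CPM (log2 -1.17 ± 0.14). Cdkn2c, an inhibitor of Cdk4 and Cdk6, fell from 32.4 ± 3.59 to 6.98 ± 0.931 CPM (log2 -2.19 ± 0.22). Cdkn1a (p21) and Cdkn1b (p27) did not pass the test, at 206 ± 5.64 CPM at P9 and 154 ± 24.2 CPM in the adult (log2 -0.42 ± 0.19, adjusted p = 0.053) and 104 ± 1.597 CPM at P9 and 84.9 ± 4.5998 CPM in the adult (log2 -0.29 ± 0.13, adjusted p = 0.061).

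Genes of the sprouting front were mostly lower in the adult. Of 25 tip cell and angiogenic genes 17 fell and 3 rose under either scaling, with a median log2 change of -1.56. Apln, the peptide hormone apelin, was at 799, 845 and 844 CPM in the P9 libraries and 63.7, 71.5 and 83.5 CPM in the adult libraries (log2 -3.505 ± 0.18, adjusted p = 1.4e-13). Its receptor Aplnr was at 588, 615 and 601 CPM in the P9 libraries and 23.1, 16.6 and 15.6 CPM in the adult libraries (log2 -5.02 ± 0.18, adjusted p = 4.9e-16). Cxcr4, the receptor of the chemokine Cxcl12, was at 118, 108 and 93.5 CPM in the P9 libraries and 9.04, 7.33 and 8.12 CPM in the adult libraries (log2 -3.69 ± 0.24, adjusted p = 5.3e-12). All 3 were lower in every adult library than in any P9 library.

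Genes of the vascular endothelial growth factor axis changed in both directions. Vegfa, a ligand, rose from 78.2 ± 17.5 to 298 ± 38.7 CPM (log2 1.93 ± 0.19). Kdr (Vegfr2), its main signalling receptor, fell from 2535 ± 73.4 to 704 ± 60.95 CPM (log2 -1.85 ± 0.11), and Flt4 (Vegfr3) fell from 427 ± 17.6 to 157 ± 14.96 CPM (log2 -1.44 ± 0.13). Flt1 (Vegfr1), which binds Vegfa and signals weakly, rose from 1819 ± 45.4 to 2439 ± 178 CPM (log2 0.42 ± 0.12), and the co-receptors Nrp1 and Nrp2 fell (log2 -0.95 ± 0.101 and log2 -1.56 ± 0.14). Vegfa is also made by astrocytes and oligodendrocyte-lineage cells, whose marker sums rose with age (above), and their part in this change was not tested.

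Angpt2, the Tie2 ligand of remodelling vessels, fell from 96.5 ± 8.52 to 20.2 ± 5.34 CPM (log2 -2.25 ± 0.26), while its receptor Tek (Tie2) did not pass the test, at 633 ± 8.06 CPM at P9 and 544 ± 22.7 CPM in the adult (log2 -0.22 ± 0.12, adjusted p = 0.12). Tie1 fell from 1211 ± 24.9 to 672 ± 12.8 CPM (log2 -0.85 ± 0.11). Adm (adrenomedullin) fell from 84.7 ± 6.32 to 12.6 ± 0.414 CPM (log2 -2.74 ± 0.22), Trp53i11 from 366 ± 22.4 to 42.1 ± 2.24 CPM (log2 -3.12 ± 0.195) and Plaur, the urokinase receptor, from 53.9 ± 1.11 to 13.2 ± 0.997 CPM (log2 -2.02 ± 0.18). The netrin receptor Unc5b was the third gene of the list to rise, from 397 ± 25.7 to 624 ± 22.5 CPM (log2 0.65 ± 0.17). Esm1, a tip cell marker, was low at both ages, 6.85 ± 2.43 CPM at P9 and 2.24 ± 1.66 CPM in the adult (log2 -1.57 ± 0.51, adjusted p = 0.011).

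In the Notch pathway 9 of 14 genes fell and 2 rose (8 and 3 with endothelial scaling). The tip cell ligand Dll4 was at 427, 421 and 397 CPM in the P9 libraries and 145, 136 and 136 CPM in the adult libraries (log2 -1.58 ± 0.13, adjusted p = 2.4e-10), with no overlap. The other endothelial ligand, Jag1, fell from 138 ± 8.76 to 72.4 ± 8.34 CPM (log2 -0.93 ± 0.105), and the receptors Notch1 and Notch4 fell (log2 -0.75 ± 0.13 and log2 -0.96 ± 0.11). The target genes Nrarp, Hes1 and Heyl fell (log2 -2.27 ± 0.18, log2 -1.904 ± 0.197 and log2 -1.85 ± 0.36), and Hey1 fell (log2 -0.64 ± 0.21, and -0.27, adjusted p = 0.31, with endothelial scaling). Hes1 and Heyl are also expressed by mural cells and astrocytes. Dll1 rose from 10.5 ± 1.41 to 29.3 ± 3.09 CPM (log2 1.47 ± 0.17) and the fringe glycosyltransferase Lfng rose (log2 0.78 ± 0.18), whereas its relative Mfng fell (log2 -1.11 ± 0.13).

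Basement membrane genes held some of the largest losses of transcript. Of 19 tested, 16 fell and none rose (14 and none with endothelial scaling), and the list's sum was 35083 to 37045 CPM at P9 and 10056 to 10540.3 CPM in the adult libraries. Col4a1 and Col4a2 encode the collagen IV chains of every vascular basement membrane. Col4a1 (ENSMUSG00000031502, chr8:11198423-11312826, minus strand on mm10) was at 6124, 5394 and 5316 CPM in the P9 libraries and 919, 945 and 799 CPM in the adult libraries (log2 -2.66 ± 0.18, adjusted p = 9.1e-12), and Col4a2, which shares its promoter region in the opposite direction, was at 5222, 4861 and 4722 CPM in the P9 libraries and 862, 819 and 754 CPM in the adult libraries (log2 -2.604 ± 0.15, adjusted p = 5.9e-13). In both, every P9 library lay at least several-fold above every adult library.

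The laminin chains differed among themselves. Lamb1 fell from 745 ± 50.5 to 31.4 ± 5.65 CPM (log2 -4.57 ± 0.17), Lama4 from 1039.7 ± 19.8 to 123 ± 11.6 CPM (log2 -3.08 ± 0.14) and Lamc1 from 1207 ± 75.1 to 215 ± 25.7 CPM (log2 -2.49 ± 0.16). Lama5 and Lamb2 did not pass the test, at 226 ± 17.9 CPM at P9 and 251 ± 51.5 CPM in the adult (log2 0.16 ± 0.39, adjusted p = 0.75) and 699 ± 24.6 CPM at P9 and 641 ± 26.6 CPM in the adult (log2 -0.13 ± 0.11, adjusted p = 0.34). Of the linker proteins between laminin and collagen IV, Nid1 fell from 1475 ± 66.1 to 88.3 ± 4.86 CPM (log2 -4.06 ± 0.14) and Nid2 from 748 ± 29.8 to 104 ± 7.796 CPM (log2 -2.85 ± 0.12), and the proteoglycans Hspg2 (perlecan), Agrn (agrin) and Col18a1, the source of endostatin, fell as well (log2 -1.63 ± 0.14, log2 -1.098 ± 0.13 and log2 -3.403 ± 0.16).

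Sparc, a secreted collagen-binding protein, fell from 5958 ± 419.7 to 1632 ± 55.2 CPM (log2 -1.87 ± 0.13), and Fn1, fibronectin, fell from 5832 ± 128 to 1771 ± 115 CPM (log2 -1.72 ± 0.13). Col15a1 and Sparcl1 fell only with TMM scaling (log2 -0.83 ± 0.25, and -0.48, adjusted p = 0.11, with endothelial scaling, and log2 -0.47 ± 0.13, and -0.099, adjusted p = 0.49, with endothelial scaling). Pericytes and fibroblasts, whose marker sums fell over the same step (for pericytes 2949 to 4021 CPM at P9 and 557 to 682 CPM in the adult), also make collagen IV, laminins, Sparc and fibronectin, and their part in these falls was not tested.

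Enzymes that fold and cross-link collagen changed in both directions. Of 19 tested, 12 fell and 4 rose (9 and 5 with endothelial scaling). The collagen chaperone Serpinh1 (Hsp47) fell from 1083 ± 35.9 to 265 ± 6.78 CPM (log2 -2.03 ± 0.15) and the lysyl oxidase Loxl2 from 24.1 ± 3.31 to 1.22 ± 0.397 CPM (log2 -4.16 ± 0.29). Among the catalytic subunits of prolyl 4-hydroxylase, P4ha2 rose from 4.37 ± 0.735 to 22.2 ± 1.86 CPM (log2 2.32 ± 0.18) and P4ha1 rose from 47.8 ± 5.37 to 68.7 ± 9.86 CPM (log2 0.52 ± 0.12), and their common partner P4hb fell (log2 -0.95 ± 0.12). P4ha3 also rose (log2 1.03 ± 0.35), but its call was lost without adult library 2, adult library 3 or P9 library 1.

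Pan-endothelial genes were mostly lower in the adult libraries. Of the 25 identity genes 17 fell and 4 rose, with a median of -0.58. With endothelial scaling, which holds their sum constant by construction, 12 fell and 6 rose. Besides Kdr (above), the largest falls were those of Cd34, a sialomucin of endothelial and progenitor cells (log2 -0.901 ± 0.12), and Ramp2, the adrenomedullin co-receptor (log2 -0.89 ± 0.13). The Ets factors Erg and Fli1 fell (log2 -0.73 ± 0.12 and log2 -0.84 ± 0.13). Ly6c1, a surface protein of mature endothelium, was at 269, 315 and 277 CPM in the P9 libraries and 1464, 1271 and 1245 CPM in the adult libraries (log2 2.21 ± 0.19, adjusted p = 5.3e-10), and S1pr1, the receptor of sphingosine-1-phosphate, at 267, 295 and 304 CPM in the P9 libraries and 508, 594 and 639.7 CPM in the adult libraries (log2 1.01 ± 0.15, adjusted p = 3.1e-06). Both were higher in every adult library. Emcn (endomucin) rose as well (log2 0.60 ± 0.15).

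Junction genes leaned down with TMM scaling only. Of 21 tested, 12 fell and 2 rose, and with endothelial scaling 5 fell and 6 rose. Cldn5 fell by TMM scaling (log2 -0.49 ± 0.13, adjusted p = 0.0026, and -0.12, adjusted p = 0.42, with endothelial scaling), and Cdh5 fell under both (log2 -0.58 ± 0.098, adjusted p = 2.2e-05, and -0.21, adjusted p = 0.043, with endothelial scaling). Ocln (occludin) did not pass the test, at 206 ± 2.69 CPM at P9 and 189 ± 7.04 CPM in the adult (log2 -0.12 ± 0.14, adjusted p = 0.48). The scaffold Tjp1 (ZO-1) fell by TMM scaling (log2 -0.59 ± 0.11, adjusted p = 6e-05, and -0.23, adjusted p = 0.066, with endothelial scaling). Marveld2 (tricellulin), a protein of tricellular contacts, fell from 29.2 ± 1.75 to 12.3 ± 1.26 CPM (log2 -1.24 ± 0.24), and Esam, an adhesion molecule, fell from 1025 ± 11.9 to 578 ± 25.04 CPM (log2 -0.83 ± 0.12). Jam3 rose from 27.2 ± 1.02 to 104 ± 4.13 CPM (log2 1.93 ± 0.13). Jam3 is also expressed by oligodendrocytes, whose marker sum rose, and their part in the rise was not tested. Cgn (cingulin) rose from a low level, from 1.89 ± 0.669 to 5.27 ± 0.745 CPM (log2 1.404 ± 0.36).

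None of 21 endothelial transcription factors rose with TMM scaling and 16 fell (3 and 12 with endothelial scaling). The SoxF factors differed. Sox17 (ENSMUSG00000025902, chr1:4490931-4497354, minus strand on mm10) was at 354, 335 and 311 CPM in the P9 libraries and 318, 298 and 274 CPM in the adult libraries (log2 -0.17 ± 0.24, adjusted p = 0.56), and the groups overlapped. It passed when the 6 wild-type libraries were fitted alone (log2 -0.18, adjusted p = 0.039). Sox18 was at 342 ± 29.8 CPM at P9 and 369 ± 30.7 CPM in the adult (log2 0.11 ± 0.22, adjusted p = 0.69), without a call, and rose with endothelial scaling (0.47, adjusted p = 0.045). Sox7 was at 159.9, 157 and 152 CPM in the P9 libraries and 67.8, 69.9 and 59.3 CPM in the adult libraries (log2 -1.25 ± 0.11, adjusted p = 2.2e-09), with no overlap. Per gene length, the authors' deposited FPKM averaged 203 at P9 and 229 in the adult for Sox18, 67.1 at P9 and 62.6 in the adult for Sox17 and 45.5 at P9 and 20.1 in the adult for Sox7, so Sox18 was the highest of the 3 at both ages.

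Meox1, a homeobox factor, fell from 111 ± 1.53 to 13.97 ± 1.24 CPM (log2 -2.98 ± 0.16), Bcl6b, a repressor enriched in vessels, from 213 ± 3.08 to 66.04 ± 7.302 CPM (log2 -1.69 ± 0.14), and Ets1 from 824 ± 40.2 to 321 ± 36.998 CPM (log2 -1.36 ± 0.12). Foxf2 and Foxq1, forkhead factors of brain vessels, fell (log2 -0.76 ± 0.11 and log2 -0.90 ± 0.12). Foxf2 and Foxc1 are also expressed in pericytes. Foxo1 and Foxo3, which promote quiescence, did not pass (log2 -0.19 ± 0.099 and log2 0.04 ± 0.09).

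Genes known as Wnt targets in brain endothelium did not move as 1 block. Of 15 tested, 11 fell and 1 rose (9 and 3 with endothelial scaling). Apcdd1, a Wnt antagonist at the membrane, was at 3094, 3263 and 3139.96 CPM in the P9 libraries and 898, 791 and 774 CPM in the adult libraries (log2 -1.95 ± 0.16, adjusted p = 3.4e-10). Spock2, a secreted proteoglycan, was at 10134, 10049 and 10205 CPM in the P9 libraries and 5869, 5793 and 5849.7 CPM in the adult libraries (log2 -0.795 ± 0.15, adjusted p = 6.5e-05). Both were lower in every adult library. Fgfbp1 fell from 19.7 ± 1.901 to 3.06 ± 1.19 CPM (log2 -2.63 ± 0.23), Tnfrsf21 (death receptor 6) from 111 ± 11.8 to 31.5 ± 3.53 CPM (log2 -1.81 ± 0.16), Tcf7 from 239 ± 16.6 to 111 ± 8.16 CPM (log2 -1.11 ± 0.14) and the feedback inhibitor Nkd1 from 525 ± 13.8 to 273 ± 28.2 CPM (log2 -0.94 ± 0.15).

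The general readouts Lef1 and Axin2 were not among the falls. Lef1, the nuclear partner of beta-catenin, was at 143, 135 and 101 CPM in the P9 libraries and 149.9, 148 and 135 CPM in the adult libraries (log2 0.19 ± 0.13, adjusted p = 0.23), and rose with endothelial scaling (0.56, adjusted p = 0.0014). Axin2, a feedback inhibitor, was at 132, 119.8 and 100.04 CPM in the P9 libraries and 167, 136 and 139 CPM in the adult libraries (log2 0.33 ± 0.15, adjusted p = 0.056), and it passed with endothelial scaling (0.69, adjusted p = 0.00092). The P9 and adult libraries overlapped for Lef1, and for Axin2 every adult library was slightly above every P9 library. Rnf43, a ubiquitin ligase that removes frizzled receptors, rose from 1.34 ± 0.791 to 16.8 ± 0.641 CPM (log2 3.49 ± 0.298).

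Of 14 Wnt receptors and effectors 8 fell and 4 rose, and with endothelial scaling 4 fell and 4 rose. Fzd4, the frizzled receptor of the retinal and brain vasculature, fell from 85.02 ± 2.68 to 46.2 ± 3.21 CPM (log2 -0.88 ± 0.11), and its co-activator Tspan12 from 62.4 ± 1.37 to 27.3 ± 0.743 CPM (log2 -1.19 ± 0.14). Adgra2 (Gpr124) fell from 493 ± 14.4 to 281 ± 5.14 CPM (log2 -0.81 ± 0.13), and its partner Reck rose from 38.7 ± 0.178 to 136 ± 12.3 CPM (log2 1.82 ± 0.15). Lrp6 did not pass the test, at 115 ± 1.68 CPM at P9 and 111 ± 7.76 CPM in the adult (log2 -0.06 ± 0.11, adjusted p = 0.69), and Lrp5 fell only with TMM scaling (log2 -0.36 ± 0.11, and 0.01, adjusted p = 0.95, with endothelial scaling). Ctnnb1 (beta-catenin) likewise fell only with TMM scaling (log2 -0.45 ± 0.098, and -0.08, adjusted p = 0.54, with endothelial scaling).

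Carriers of fuels moved in opposite directions. Slc16a1 (Mct1), which carries lactate and ketone bodies, is ENSMUSG00000032902, chr3:104638668-104658462, plus strand on mm10 and was at 3859, 4005 and 3662 CPM in the P9 libraries and 569.6, 495 and 459.6 CPM in the adult libraries (log2 -2.92 ± 0.18, adjusted p = 2.2e-12). Slc2a1 (Glut1), the glucose carrier of the barrier, was at 1369.8, 1364 and 1484 CPM in the P9 libraries and 2091, 1993 and 1965 CPM in the adult libraries (log2 0.52 ± 0.12, adjusted p = 0.00085). In the first every adult library was lower, and in the second every adult library was higher. Over the whole list of glucose, lactate and ketone handling, 7 of 13 rose and 5 fell (7 and 3 with endothelial scaling).

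Enzymes of ketone use were mixed, with Bdh1 and Oxct1 rising (log2 0.58 ± 0.17 and log2 0.35 ± 0.12) and Acat1 falling (log2 -1.06 ± 0.11). Hexokinase Hk2 rose from a low level, from 2.85 ± 1.02 to 7.28 ± 0.915 CPM (log2 1.33 ± 0.23), and Hk1 did not pass the test, at 207 ± 5.004 CPM at P9 and 179.7 ± 18.8 CPM in the adult (log2 -0.205 ± 0.12, adjusted p = 0.16). Bsg (basigin), the chaperone that brings Mct1 to the membrane, fell by TMM scaling from 8283 ± 334 to 5665 ± 156 CPM (log2 -0.55 ± 0.16, and -0.18, adjusted p = 0.2, with endothelial scaling). Slc2a1 and Slc16a1 are also expressed in astrocytes and oligodendrocytes, whose sums rose with age.

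Amino acid carriers showed large changes in both directions. Of 14 tested, 9 fell and 5 rose (8 and 5 with endothelial scaling), and the 5 rises became 3 without P9 library 2. Slc7a5 (Lat1), the carrier of large neutral amino acids, was at 3188, 3212 and 3194 CPM in the P9 libraries and 917, 982 and 951 CPM in the adult libraries (log2 -1.75 ± 0.16, adjusted p = 3.2e-09), with no overlap. Its heavy chain Slc3a2 (4F2hc) fell from 1519.99 ± 66.8 to 569.9 ± 29.4 CPM (log2 -1.42 ± 0.11). The cationic amino acid carrier Slc7a1 fell from 2479.99 ± 34.2 to 397 ± 26.4 CPM (log2 -2.64 ± 0.15), the alanine-serine-cysteine carrier Slc1a4 from 1117 ± 41.9 to 92.9 ± 20.5 CPM (log2 -3.59 ± 0.19), and the Lat2 carrier Slc7a8 from 356 ± 14.7 to 21.3 ± 3.53 CPM (log2 -4.06 ± 0.20). The glutamine carriers Slc38a5 and Slc38a2 fell (log2 -2.35 ± 0.14 and log2 -2.03 ± 0.15). Slc6a9 (the glycine carrier Glyt1) rose from 20.02 ± 4.75 to 317 ± 26.4 CPM (log2 3.98 ± 0.32), and Slc1a1, a glutamate carrier, rose from 89.8 ± 2.46 to 212 ± 16.3 CPM (log2 1.24 ± 0.14). Slc6a9 is expressed by glia, and their part was not tested. Slc6a6, the taurine carrier, rose (log2 0.45 ± 0.16).

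Efflux pumps and other ABC transporters rose more often than they fell. Of 9 ABC transporters 5 rose and 2 fell (6 and 1 with endothelial scaling). Abcb1a (P-glycoprotein), the main drug pump of the barrier, is ENSMUSG00000040584, chr5:8660077-8748575, plus strand on mm10 and was at 643, 683 and 649 CPM in the P9 libraries and 1287, 1154 and 1124 CPM in the adult libraries (log2 0.85 ± 0.11, adjusted p = 9.5e-07), with every adult library higher. Abcg2 (the breast cancer resistance protein) rose by less, from 206 ± 17.2 to 258 ± 18.3 CPM (log2 0.32 ± 0.11), and Abcc4 did not pass, at 195 ± 4.27 CPM at P9 and 239 ± 32.4 CPM in the adult (log2 0.295 ± 0.13, adjusted p = 0.051). The cholesterol exporter Abca1 fell from 768 ± 17.7 to 99.97 ± 14.6 CPM (log2 -2.94 ± 0.17). Abca2 rose from 119 ± 20.5 to 1551 ± 54.1 CPM (log2 3.698 ± 0.25), the largest rise of the list. The sum of the whole list went from 2266 ± 80.6 to 3810 ± 213 CPM, so Abca2 weighs heavily in it. Abca2 is a gene of myelinating oligodendrocytes, whose markers rose by a median of 4.54 on the log2 scale, and their part was not tested.

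Of 13 carriers of organic anions, hormones and vitamins, 7 fell and 4 rose (6 and 5 with endothelial scaling). Slco1a4 (Oatp1a4), an organic anion carrier, was at 399, 443 and 387 CPM in the P9 libraries and 1648, 1420.3 and 1336 CPM in the adult libraries (log2 1.84 ± 0.22, adjusted p = 1.3e-07), and Slco1c1 (Oatp1c1), the thyroxine carrier, at 2502, 2571 and 2222 CPM in the P9 libraries and 1452, 1459.7 and 1442 CPM in the adult libraries (log2 -0.74 ± 0.12, adjusted p = 1.8e-05). The first was higher and the second lower in every adult library. The prostaglandin carrier Slco2a1 fell from 188 ± 7.87 to 12.2 ± 1.55 CPM (log2 -3.93 ± 0.21). Slc22a8 (Oat3) fell from 1340.1 ± 80.7 to 765 ± 38.3 CPM (log2 -0.81 ± 0.16). The thiamine carrier Slc19a3 rose and the reduced folate carrier Slc19a1 fell (log2 1.01 ± 0.13 and log2 -1.06 ± 0.25).

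Genes of receptor-mediated uptake and iron were mostly lower, with 12 of 18 falling and 2 rising (10 and 4 with endothelial scaling). Tfrc, the transferrin receptor through which iron enters the brain, was at 2176, 2167 and 1836 CPM in the P9 libraries and 359, 356 and 324 CPM in the adult libraries (log2 -2.57 ± 0.15, adjusted p = 1.2e-12). Lrp8 (ApoER2) was at 1535, 1562 and 1601 CPM in the P9 libraries and 326, 329 and 298 CPM in the adult libraries (log2 -2.301 ± 0.099, adjusted p = 6.7e-15). Both were lower in every adult library. The iron exporter Slc40a1 (ferroportin) fell from 675 ± 33.6 to 214 ± 23.9 CPM (log2 -1.65 ± 0.13), and the ferritin heavy chain Fth1 fell from 2662 ± 189 to 949 ± 91.1 CPM (log2 -1.49 ± 0.18). The insulin receptor Insr fell (log2 -0.88 ± 0.13), and the leptin receptor Lepr did not pass the test (log2 -0.31 ± 0.18).

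Of 25 fatty acid handling genes 10 fell and 7 rose, and with endothelial scaling 7 fell and 8 rose. The lipase inhibitor Angptl4 fell from 215 ± 1.17 to 27.9 ± 2.25 CPM (log2 -2.94 ± 0.22), Ppard from 419 ± 23.5 to 147 ± 10.1 CPM (log2 -1.51 ± 0.16) and Cpt1a, the entry step of mitochondrial fatty acid oxidation, from 428 ± 14.8 to 222 ± 1.61 CPM (log2 -0.94 ± 0.12). Slc27a1 (Fatp1) rose from 88.2 ± 7.46 to 379 ± 46.96 CPM (log2 2.102 ± 0.14) and Acsl6 from 23.9 ± 1.87 to 136 ± 23.4 CPM (log2 2.502 ± 0.204). The part of astrocytes and oligodendrocytes, whose marker sums rose over the same step, was not tested for these rises. Mfsd2a, which carries lysophosphatidylcholine with docosahexaenoic acid and holds vesicle traffic low, was at 1469, 1429.8 and 1426 CPM in the P9 libraries and 457, 444 and 405 CPM in the adult libraries (log2 -1.73 ± 0.14, adjusted p = 3e-10), with every adult library lower.

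Of 21 genes of cholesterol synthesis and uptake 14 rose and 2 fell under either scaling, with a median of 0.77. The sterol enzymes Msmo1 and Sc5d rose, Msmo1 from 53.5 ± 9.59 to 171 ± 16.8 CPM (log2 1.68 ± 0.18) and Sc5d from 20.2 ± 2.603 to 58.5 ± 4.83 CPM (log2 1.53 ± 0.21), and so did Fdft1, squalene synthase, from 37.8 ± 2.92 to 77.1 ± 5.27 CPM (log2 1.03 ± 0.13). Stard4, a carrier of cholesterol within the cell, was 1 of the 2 genes that fell, going from 163 ± 4.47 to 82.8 ± 7.49 CPM (log2 -0.98 ± 0.12). Oligodendrocytes make cholesterol for myelin, and their summed markers were 1119 to 2006 CPM at P9 and 23470.0 to 28567 CPM in the adult; their part was not tested.

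Of 11 vesicle and caveola genes 3 fell and 2 rose, and with endothelial scaling 1 fell and 7 rose. Cav1, the structural protein of caveolae, was at 319 ± 18.9 CPM at P9 and 314 ± 22.4 CPM in the adult (log2 -0.02 ± 0.16, adjusted p = 0.92) and Cav2 at 70.9 ± 2.45 CPM at P9 and 92.2 ± 8.79 CPM in the adult (log2 0.38 ± 0.17, adjusted p = 0.056), neither with a call. Ptrf (cavin-1) fell by TMM scaling (log2 -0.41 ± 0.16, adjusted p = 0.03, and -0.04, adjusted p = 0.83, with endothelial scaling), and this call was lost in 5 of the 6 fits without 1 library. Pacsin3 rose from 11.6 ± 1.12 to 66.7 ± 2.93 CPM (log2 2.503 ± 0.21). Plvap, the diaphragm protein of fenestrated and immature vessels, was at 9.29, 8.44 and 10.4 CPM in the P9 libraries and 28.5, 11.8 and 12.4 CPM in the adult libraries (log2 0.89 ± 0.32, adjusted p = 0.021). Adult library 1 was the highest, and without it the change was 0.37 on the log2 scale (adjusted p = 0.32). The call was also lost without P9 library 1 (0.051) or P9 library 2 (0.068).

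**Figure D3:**
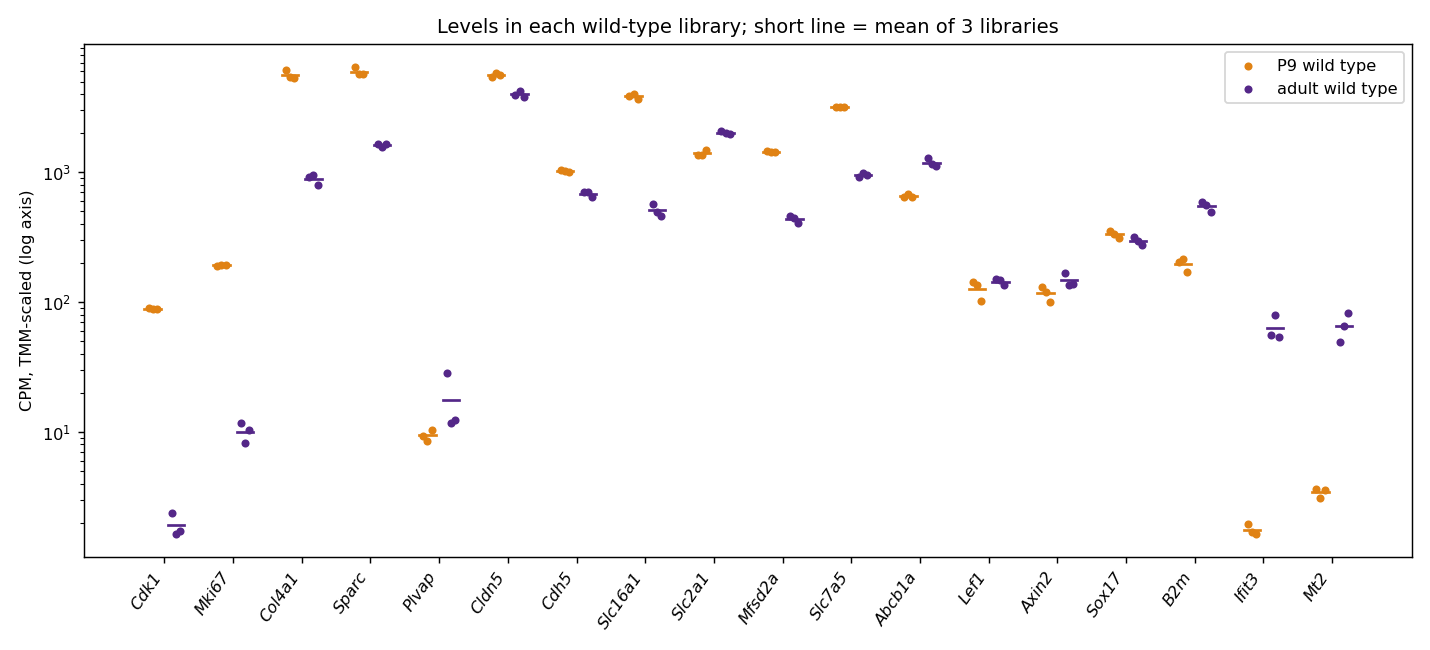
CPM (log axis) of 18 named genes in each of the 3 P9 and 3 adult wild-type libraries; points are libraries and short lines are means. Cdk1, Mki67, Col4a1, Slc16a1 and Slc7a5 are lower and Slc2a1, Abcb1a, B2m, Ifit3 and Mt2 higher in all adult libraries, while Lef1, Axin2 and Sox17 lie close together; the adult Cldn5 values lie below P9 here but the fall is not called with endothelial scaling.

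Arterial genes changed in both directions, 10 of 21 rising and 8 falling (11 and 5 with endothelial scaling). The largest rises were in Alpl, alkaline phosphatase, from 12.97 ± 1.03 to 180.2 ± 4.18 CPM (log2 3.78 ± 0.26), Gkn3, a marker of mature brain arterioles, from 4.89 ± 0.342 to 44.4 ± 5.76 CPM (log2 3.15 ± 0.32), and Clu (clusterin) from 134 ± 16.7 to 809.7 ± 139.7 CPM (log2 2.59 ± 0.201). Clu is also expressed by astrocytes. The connexin Gja4 fell from 144 ± 1.27 to 22.1 ± 4.22 CPM (log2 -2.704 ± 0.22), and Gja5 fell by TMM scaling (log2 -0.798 ± 0.32, and -0.43, adjusted p = 0.27, with endothelial scaling). The elastic fibre genes Eln and Fbln5 fell (log2 -1.83 ± 0.24 and log2 -1.62 ± 0.23), whereas Ltbp4 and Mgp rose (log2 0.98 ± 0.199 and log2 1.24 ± 0.22). Smooth muscle markers, for comparison, summed to 218 to 301 CPM at P9 and 172 to 178 CPM in the adult, with 3 of 5 rising and 2 falling.

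Of 16 venous genes 9 fell and 3 rose (7 and 3 with endothelial scaling). Besides Aplnr and Slc38a5 (above), Vwf, the von Willebrand factor, fell from 1444 ± 132 to 457 ± 49.2 CPM (log2 -1.66 ± 0.15), and the venous regulator Nr2f2 (Coup-TFII) fell from 41.97 ± 2.65 to 20.98 ± 1.899 CPM (log2 -0.99 ± 0.16). Nr2f2 is also expressed in pericytes, whose markers fell. The adhesion molecules for leukocytes went opposite ways: Icam1 fell from 151 ± 4.93 to 52.3 ± 6.49 CPM (log2 -1.52 ± 0.25) and Vcam1 rose from 27.7 ± 3.66 to 81.97 ± 8.37 CPM (log2 1.56 ± 0.22). Selp, Sele and Ackr1 did not pass the test.

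In the TGF-beta and BMP list 9 of 24 genes rose and 8 fell (11 and 6 with endothelial scaling). The signal transducers Smad1, Smad5, Smad2 and Smad3 fell (log2 -1.32 ± 0.14, log2 -0.96 ± 0.11, log2 -0.85 ± 0.12 and log2 -1.07 ± 0.09). The inhibitory Smad6 and Smad7 and the targets Id2 and Id3 rose (log2 0.66 ± 0.195, log2 0.74 ± 0.17, log2 0.50 ± 0.18 and log2 0.72 ± 0.15). The endothelial receptor Acvrl1 (Alk1) rose slightly (log2 0.26 ± 0.11), and its co-receptor Eng (endoglin) fell from 3057 ± 239 to 1832 ± 42.4 CPM (log2 -0.74 ± 0.14). The ligand Bmp6 rose from 4.11 ± 0.465 to 13.4 ± 0.612 CPM (log2 1.67 ± 0.32), and Tgfb1 fell (log2 -1.05 ± 0.16).

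Flow and vasomotor genes counted 7 rises and 8 falls of 18, and with endothelial scaling 8 rises and 5 falls. The flow-induced factors Klf2 and Klf4 fell with TMM scaling alone (log2 -0.63 ± 0.19, and -0.25, adjusted p = 0.25, with endothelial scaling, and for Klf4 log2 -0.599 ± 0.16, and -0.23, adjusted p = 0.2, with endothelial scaling). Nos3 (endothelial nitric oxide synthase) fell from 804 ± 3.14 to 509 ± 10.6 CPM (log2 -0.66 ± 0.14). The calcium channel Trpv4 rose from 12.05 ± 2.93 to 77.8 ± 4.59 CPM (log2 2.68 ± 0.23), and the potassium channel Kcnj2 (Kir2.1) fell from 115 ± 15.4 to 27.8 ± 2.52 CPM (log2 -2.05 ± 0.16). Prostaglandin genes went apart, with Ptgs1 (cyclooxygenase-1) rising from 3.17 ± 0.355 to 12.8 ± 4.24 CPM (log2 1.96 ± 0.25) and Ptgis (prostacyclin synthase) falling from 65.3 ± 2.75 to 9.64 ± 1.68 CPM (log2 -2.74 ± 0.17). Ptgs1 is also expressed by microglia, whose markers rose, and their part was not tested. Ace, the angiotensin-converting enzyme, rose from 75.1 ± 3.15 to 158 ± 28.9 CPM (log2 1.07 ± 0.18).

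Of 13 haemostasis genes 7 fell and 4 rose (6 and 5 with endothelial scaling). Thbd (thrombomodulin), which turns thrombin toward protein C, rose from 116 ± 6.88 to 303 ± 5.09 CPM (log2 1.38 ± 0.12), while its partner Procr, the protein C receptor, fell from 38.8 ± 3.44 to 15.9 ± 0.590 CPM (log2 -1.28 ± 0.202). The tissue factor inhibitor Tfpi fell from 104 ± 6.81 to 18.5 ± 0.131 CPM (log2 -2.48 ± 0.16) and the thrombin receptor F2r from 51.4 ± 9.37 to 5.48 ± 0.991 CPM (log2 -3.202 ± 0.21). Gas6 rose from 97.9 ± 4.99 to 287 ± 27.2 CPM (log2 1.55 ± 0.13). F2r is expressed in mural cells too, whose marker sums fell, and their part was not tested.

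Transcripts of genes for antigen presentation on MHC class I rose. Of 17 genes of the class I heavy chains, beta-2 microglobulin, the peptide loading complex and the immunoproteasome, 15 rose and none fell, and all 17 rose with endothelial scaling. The list summed to 1099.97 to 1189.5 CPM at P9 and 2792 to 3269.6 CPM in the adult libraries. B2m, the invariant light chain, was at 204, 217 and 172 CPM in the P9 libraries and 591, 555 and 495 CPM in the adult libraries (log2 1.47 ± 0.17, adjusted p = 1.1e-07). H2-K1, a classical heavy chain, was at 122, 133 and 119 CPM in the P9 libraries and 784, 624 and 553 CPM in the adult libraries (log2 2.39 ± 0.23, adjusted p = 4.9e-09). Every adult library was higher for both. H2-D1 rose from 322 ± 12.2 to 694 ± 25.1 CPM (log2 1.11 ± 0.12), and Nlrc5, the transactivator of class I genes, from 1.66 ± 0.574 to 20.95 ± 4.01 CPM (log2 3.54 ± 0.35). The immunoproteasome subunits Psmb8 and Psmb9 rose (log2 1.97 ± 0.195 and log2 2.28 ± 0.24), as did the peptide transporter genes Tap1 and Tap2 (log2 0.75 ± 0.21 and log2 1.197 ± 0.16). The heavy chain genes are near-identical copies, so reads may be shared among H2-K1, H2-D1 and the H2-Q genes.

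None of 6 MHC class II genes passed edgeR's test, 0 had an unadjusted p under 0.05, and DESeq2 and limma called 0. Cd74, the invariant chain, was at 5.79 ± 1.06 CPM at P9 and 3.996 ± 2.02 CPM in the adult (log2 -0.52 ± 0.38, adjusted p = 0.24). With endothelial scaling 1 rose, and without adult library 2, 1 fell. Microglia express both classes, and their list sum was 55.1 to 64.5 CPM at P9 and 173 to 403 CPM in the adult. Their part in the class I rise was not tested.

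All 24 interferon-response genes rose under either scaling, with a median of 1.54, and the list summed to 700.3 to 841 CPM at P9 and 1950.01 to 2237 CPM in the adult libraries. The promoters of the most strongly raised members, Ifit3 and Ifit1, are shown for the size of their rise. Both genes encode proteins that bind viral RNA or its complexes. Each promoter holds a pair of matches to the interferon-stimulated response element. The lines give the 250 bases before the start in RefSeq (GRCm38.p6), at chr19:34583279-34583528 for Ifit3 and chr19:34640639-34640888 for Ifit1, both on the plus strand and 5′ to 3′. Capitals mark matches on either strand to the core of this element, which is GAAA followed after any 2 bases by GAAA, and all 4 matches shown lie on the strand opposite to the gene.
Ifit3: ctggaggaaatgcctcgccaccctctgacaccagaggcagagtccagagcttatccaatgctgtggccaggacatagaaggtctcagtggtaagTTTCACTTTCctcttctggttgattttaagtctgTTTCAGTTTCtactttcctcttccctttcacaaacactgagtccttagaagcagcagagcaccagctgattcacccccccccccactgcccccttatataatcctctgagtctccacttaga
Ifit1: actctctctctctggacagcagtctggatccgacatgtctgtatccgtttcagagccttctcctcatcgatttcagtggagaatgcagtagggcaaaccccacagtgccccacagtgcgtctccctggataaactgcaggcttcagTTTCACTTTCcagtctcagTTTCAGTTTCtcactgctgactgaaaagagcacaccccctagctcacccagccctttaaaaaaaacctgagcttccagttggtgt
The element was found in 11 of the 19 list members with a promoter entry (57.9%) and in 3 of 13 called class I genes (23.1%), against 3.04% of 27025 promoters. A match is a description of the letters only.

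Ifit3 was at 1.96, 1.698 and 1.64 CPM in the P9 libraries and 55.8, 79.6 and 54.1 CPM in the adult libraries (log2 5.06 ± 0.504, adjusted p = 8.3e-09), and Ifit1 at 3.07, 4.47 and 3.14 CPM in the P9 libraries and 43.99, 60.7 and 50.03 CPM in the adult libraries (log2 3.801 ± 0.36, adjusted p = 4.3e-09). Irf7, the transcription factor that amplifies the response, was at 40.8, 37.4 and 29.1 CPM in the P9 libraries and 138, 192 and 171 CPM in the adult libraries (log2 2.22 ± 0.29, adjusted p = 7.3e-07). All adult libraries lay above all P9 libraries. Iigp1, an immunity-related GTPase, rose from 2.398 ± 0.437 to 31.99 ± 1.84 CPM (log2 3.68 ± 0.35), Rsad2 (viperin) from 5.34 ± 1.78 to 44.2 ± 3.09 CPM (log2 3.01 ± 0.43), and Ifi27 from 35.8 ± 0.172 to 144 ± 7.22 CPM (log2 2.005 ± 0.14). The signal transducer Stat2 rose by less (log2 1.09 ± 0.11), and Irf9 by least (log2 0.39 ± 0.13).

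Of 17 inflammatory genes, 5 rose and 6 fell, and with endothelial scaling 7 rose and 3 fell. Cx3cl1 (fractalkine) rose from 39.9 ± 2.297 to 161 ± 19.6 CPM (log2 2.01 ± 0.16) and Cxcl12 from 794 ± 16.1 to 2309 ± 212 CPM (log2 1.54 ± 0.22). The part of other cell types, among them neurons, whose summed markers rose as well, was not tested. Il4ra, a chain of the interleukin-4 receptor, fell (log2 -1.22 ± 0.14). Nfkbia and Ccl2 did not pass the test (log2 0.03 ± 0.12 and log2 -0.104 ± 0.76).

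Genes induced by glucocorticoids split between 9 rises and 2 falls of 18 (10 and 2 with endothelial scaling). The metallothioneins, which bind zinc, changed most: Mt2 was at 3.598, 3.11 and 3.57 CPM in the P9 libraries and 49.7, 64.98 and 82.5 CPM in the adult libraries (log2 4.22 ± 0.32, adjusted p = 1.1e-10) and Mt1 at 5.76, 5.49 and 6.93 CPM in the P9 libraries and 90.1, 117 and 131 CPM in the adult libraries (log2 4.195 ± 0.22, adjusted p = 1.5e-13). Neither overlapped between the ages. Klf9 rose from 24.5 ± 2.73 to 79.6 ± 13.9 CPM (log2 1.69 ± 0.14). Fkbp5, a co-chaperone of the receptor, fell from 35.2 ± 1.08 to 8.57 ± 1.78 CPM (log2 -2.02 ± 0.18), and Tsc22d3 (Gilz) did not pass, at 172 ± 19.2 CPM at P9 and 141 ± 19.4 CPM in the adult (log2 -0.28 ± 0.18, adjusted p = 0.18). Metallothioneins are also abundant in astrocytes, whose summed markers were 549 to 629.6 CPM at P9 and 1573 to 2428 CPM in the adult, and their part was not tested.

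Clock genes counted 9 rises and 3 falls of 17 (11 and 2 with endothelial scaling). Arntl (Bmal1) rose from 26.4 ± 2.19 to 66.4 ± 3.64 CPM (log2 1.33 ± 0.11), Npas2 from 1.602 ± 0.232 to 13.7 ± 2.54 CPM (log2 2.998 ± 0.28) and Nr1d1 (Rev-erb alpha) from 37.8 ± 2.0004 to 80.5 ± 7.73 CPM (log2 1.09 ± 0.14), and Nr1d2 fell (log2 -0.91 ± 0.14). The period genes Per1, Per2 and Per3 did not pass (log2 -0.16 ± 0.17, log2 0.06 ± 0.17 and log2 0.12 ± 0.14). The hour of collection is not in the labels, so hour and age cannot be told apart for these genes.

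Of 19 genes of hypoxia and glycolysis 8 fell and 5 rose, and with endothelial scaling 3 fell and 6 rose. The pyruvate kinase Pkm fell from 923 ± 36.5 to 531 ± 23.5 CPM (log2 -0.796 ± 0.11), and Ldha fell by TMM scaling (log2 -0.603 ± 0.13, and -0.23, adjusted p = 0.096, with endothelial scaling), while Pgk1, Aldoa and Gapdh did not pass. Ndrg1 rose from 22.02 ± 1.78 to 1082 ± 42.1 CPM (log2 5.61 ± 0.28). It is a gene of myelin-forming cells as well as a hypoxia target, and the part of oligodendrocytes was not tested.

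Fetal growth genes declined. Of 23 imprinted and fetal growth genes tested, 15 fell and 2 rose (9 and 5 with endothelial scaling). Igf2, the fetal insulin-like growth factor, was at 499, 348 and 427 CPM in the P9 libraries and 131, 117 and 139 CPM in the adult libraries (log2 -1.72 ± 0.31, adjusted p = 5e-05), and its clearance receptor Igf2r at 152, 129 and 154 CPM in the P9 libraries and 44.4, 41.8 and 40.03 CPM in the adult libraries (log2 -1.78 ± 0.102, adjusted p = 7.2e-13). H19, the non-coding RNA next to Igf2, was at 13.3, 11.8 and 10.997 CPM in the P9 libraries and 0.304, 0.342 and 0.416 CPM in the adult libraries (log2 -4.66 ± 0.37, adjusted p = 1.6e-10). The groups did not overlap in any of them. The messenger-binding proteins of the Igf2bp family were almost undetected in the adult: Igf2bp3 had 398 counts in the P9 libraries and 3 in the adult ones, a P9 to adult ratio of 119 (95% counting interval 40.5 to 580), and Igf2bp1 had 113 and 3, a ratio of 33.8 (11.3 to 167). Hmga2, a chromatin protein of fetal cells, had 10 counts at P9 and 0 in the adult, a P9 to adult ratio of 2.99 with the adult set to its limit of 3 counts. The counting error of the 10 counts is not in this value. Cdkn1c, an imprinted inhibitor of the cell cycle, did not pass, at 68.1 ± 7.26 CPM at P9 and 72.8 ± 8.07 CPM in the adult (log2 0.098 ± 0.13, adjusted p = 0.54). Igf2 and H19 are also expressed by fibroblasts and pericytes, whose sums fell.

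Immediate early genes, which respond within minutes to handling as well as to growth factors, were lower in the adult, with the same kit at both ages: 16 of 18 fell and none rose (14 and none with endothelial scaling). Fos was at 904, 638 and 584 CPM in the P9 libraries and 89.9, 70.5 and 52.2 CPM in the adult libraries (log2 -3.32 ± 0.24, adjusted p = 2.8e-11), and Fosb at 584, 407 and 366 CPM in the P9 libraries and 33.3, 26.98 and 15.96 CPM in the adult libraries (log2 -4.15 ± 0.296, adjusted p = 2.9e-11). Egr1 was at 413, 287 and 259 CPM in the P9 libraries and 54.6, 46.6 and 41.6 CPM in the adult libraries (log2 -2.74 ± 0.17, adjusted p = 2.1e-12). All 3 were lower in every adult library. Whether the dissociation took equally long for both ages is not in the labels.

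Of 80 ribosomal protein genes 77 fell and none rose (76 and none with endothelial scaling), with a median of -1.34. Rplp0 fell from 1246 ± 42.1 to 309 ± 36.96 CPM (log2 -2.01 ± 0.17) and Rps2 from 1188 ± 299 to 335 ± 31.97 CPM (log2 -1.83 ± 0.18). Rpl24, Rpl39l and Rpl3l did not pass (log2 -0.42 ± 0.47, log2 -0.19 ± 0.59 and log2 0.73 ± 0.58). Many ribosomal protein genes have processed pseudogenes, with which reads may be shared. Of 71 nuclear-encoded genes of the respiratory chain 53 fell and 2 rose, and with endothelial scaling 28 fell and 6 rose, and their median of -0.56 was nearer to the median of all genes.

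The genes with the largest ratios between the ages included several with almost no counts at 1 of them. Etnppl (ethanolamine-phosphate phospho-lyase) had 1 count over the P9 libraries and 1497 over the adult ones, a ratio of 1670 with an interval of 299 to 65900. D7Ertd443e had 2 and 1000 counts (557, 154 to 4600), and Gabra6, a subunit of the GABA-A receptor, 1 and 434 (483, 86.3 to 19100). Xdh, xanthine dehydrogenase, was at 0.8504, 0.736 and 0.857 CPM in the P9 libraries and 129.8, 126 and 120.4 CPM in the adult libraries (log2 7.07 ± 0.22, adjusted p = 9.2e-17). Il33, an alarmin cytokine, was at 1.11, 1.42 and 0.4999 CPM in the P9 libraries and 96.3, 90.3 and 107 CPM in the adult libraries (log2 6.401 ± 0.29, adjusted p = 1.5e-14). Both were higher in every adult library. Opalin, a myelin protein, rose from 1.34 ± 0.416 to 149.5 ± 1.69 CPM (log2 6.66 ± 0.28), Faim2 from 1.69 ± 0.397 to 182 ± 18.2 CPM (log2 6.63 ± 0.31), Evi2a from 0.618 ± 0.549 to 55.7 ± 3.46 CPM (log2 6.23 ± 0.33), Pigz from 0.5496 ± 0.114 to 53.7 ± 0.839 CPM (log2 6.31 ± 0.27) and Pex5l from 4.44 ± 0.768 to 362 ± 17.1 CPM (log2 6.302 ± 0.25). Opalin and Il33 are expressed by oligodendrocytes, whose part was not tested. The cell type behind the other rises given here, among them Etnppl and Gabra6, was not tested either. Summed astrocyte and neuron markers rose as well (above). The non-coding RNA RP23-63A19.1 had 0 counts at P9 and 380 in the adult, a ratio of 141 with P9 set to its limit of 3 counts. The antisense RNA RP24-187P11.2 had 1 and 427 (475, 84.9 to 18800).

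Among the falls, Ackr2, a scavenger receptor of chemokines, was at 150.2, 170.2 and 183 CPM in the P9 libraries and 2.13, 1.64 and 1.73 CPM in the adult libraries (log2 -6.43 ± 0.25, adjusted p = 1.7e-15). Madcam1, an addressin that binds lymphocyte integrins, was at 18.8, 25.3 and 28.1 CPM in the P9 libraries and 0.07597, 0 and 0.208 CPM in the adult libraries (log2 -6.77 ± 0.399, adjusted p = 1.1e-12). Nox4, a hydrogen-peroxide-producing oxidase, was at 15.8, 13.4 and 15.3 CPM in the P9 libraries and 0.152, 0.137 and 0.0694 CPM in the adult libraries (log2 -5.93 ± 0.22, adjusted p = 8.9e-16). Summed over the 3 adult libraries, Ackr2 had 77 counts, Madcam1 4 and Nox4 5. Tnfrsf11b (osteoprotegerin) fell from 75.2 ± 9.79 to 1.43 ± 0.334 CPM (log2 -5.59 ± 0.33), the phosphatase Dusp2 from 55.9 ± 7.0003 to 0.9503 ± 0.181 CPM (log2 -5.71 ± 0.22), Dusp27 from 32.3 ± 1.31 to 0.3098 ± 0.149 CPM (log2 -6.22 ± 0.26), the helix-loop-helix factor Nhlh1 from 13.5 ± 1.88 to 0.175 ± 0.246 CPM (log2 -5.54 ± 0.41), Mmrn1 (multimerin-1) from 25.8 ± 1.97 to 0.446 ± 0.127 CPM (log2 -5.495 ± 0.26), Tacr3, the neurokinin B receptor, from 10.4 ± 2.14 to 0.127 ± 0.219 CPM (log2 -5.42 ± 0.45) and Lipc, hepatic lipase, from 16.3 ± 0.615 to 0.295 ± 0.2799 CPM (log2 -5.32 ± 0.38).

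In CPM, which are not scaled by gene length, the order was different. Among the largest gains were those of myelin and lipid genes: Cnp, Mag, Aplp1, Mbp, Scd2, Enpp2, Mal and Pltp. Of these, Pltp, the phospholipid transfer protein, is also known from brain endothelium and rose from 2118 ± 42.4 to 4158 ± 103 CPM (log2 0.97 ± 0.15). Ttr, of the choroid plexus and ependyma markers, was also among the largest gains, but its call was lost whichever of the 6 libraries was left out (above). The largest losses were in Col4a1, Sparc, Spock2, Col4a2, Fn1, Slc16a1, Eef1a1, Bsg, Apcdd1 and Slc7a5. Eef1a1, the translation elongation factor, fell from 4279.7 ± 268 to 1270.5 ± 94.6 CPM (log2 -1.75 ± 0.19).

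The wild-type libraries of embryonic stage E15.5 and of P5, 3 each, share no library with the P9 and adult groups and allow the earlier step to be set beside the later one. They were dissociated with the neural tissue kit, the E15.5 embryos had tamoxifen through their mothers (2 injections of 1 mg), the P5 pups 100 µg on postnatal day 1, so levels across the kits are given as values only. From E15.5 to P5, 11435 genes (66.6%) were called, 6215 (36.2%) higher and 5220 (30.4%) lower. This split rested on the scaling, since all 25 endothelial identity genes rose with TMM, and with endothelial scaling 541 genes rose and 14110 fell. Of the 5191 genes that fell from P9 to adult, 3047 (58.7%) had risen from E15.5 to P5, which is 49.0% of the earlier rises, and 673 (12.96%) had fallen, 12.9% of the earlier falls. Of the 5294 that rose, 1373 (25.9%) had risen before (22.1% of the earlier rises) and 2349 (44.4%) had fallen (45.0% of the earlier falls). With endothelial scaling these counts were very different: 142 genes rose and then fell, 2125 fell in both steps, 281 rose in both and 6217 fell and then rose.

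Basement membrane genes rose for 16 and fell for 1 of 19 from E15.5 to P5 with TMM, but rose for 4 and fell for 10 with endothelial scaling. Col4a1 averaged 2870.2 ± 319 CPM at E15.5, 6827 ± 996 at P5, 5612 ± 446 at P9 and 888 ± 77.9 in the adult. Amino acid carriers rose for 13 of 14 with TMM and for none with endothelial scaling, where 7 fell, and Slc7a5 averaged 1073 ± 144 CPM at E15.5, 2972 ± 533 at P5, 3198 ± 12.5 at P9 and 949.9 ± 32.6 in the adult. Interferon genes rose for 22 and fell for 1 of 24 (11 and 2 with endothelial scaling), and class I genes rose for 15 of 17 (9 rising and 2 falling with endothelial scaling). B2m averaged 67.6 ± 13.97 CPM at E15.5, 221 ± 43.8 at P5, 198 ± 22.95 at P9 and 547 ± 48.1 in the adult; its earlier rise was a call with TMM but not with endothelial scaling (0.02, adjusted p = 0.87). Abcb1a averaged 106 ± 18.1 CPM at E15.5, 532 ± 28.5 at P5, 658 ± 21.9 at P9 and 1188 ± 86.8 in the adult, and Slc2a1 909.8 ± 61.98 CPM at E15.5, 1421 ± 124 at P5, 1406 ± 67.9 at P9 and 2017 ± 66.2 in the adult. Immediate early genes rose for 16 of 18 (11, with 2 falling, with endothelial scaling), and Fos averaged 232 ± 41.3 CPM at E15.5, 1765 ± 291 at P5, 709 ± 171 at P9 and 70.9 ± 18.9 in the adult. Igf2 averaged 458 ± 196 CPM at E15.5, 733 ± 172 at P5, 425 ± 75.4 at P9 and 129 ± 10.8 in the adult, and 17 of 23 imprinted and fetal growth genes fell from E15.5 to P5 (23 with endothelial scaling).

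**Figure D4:**
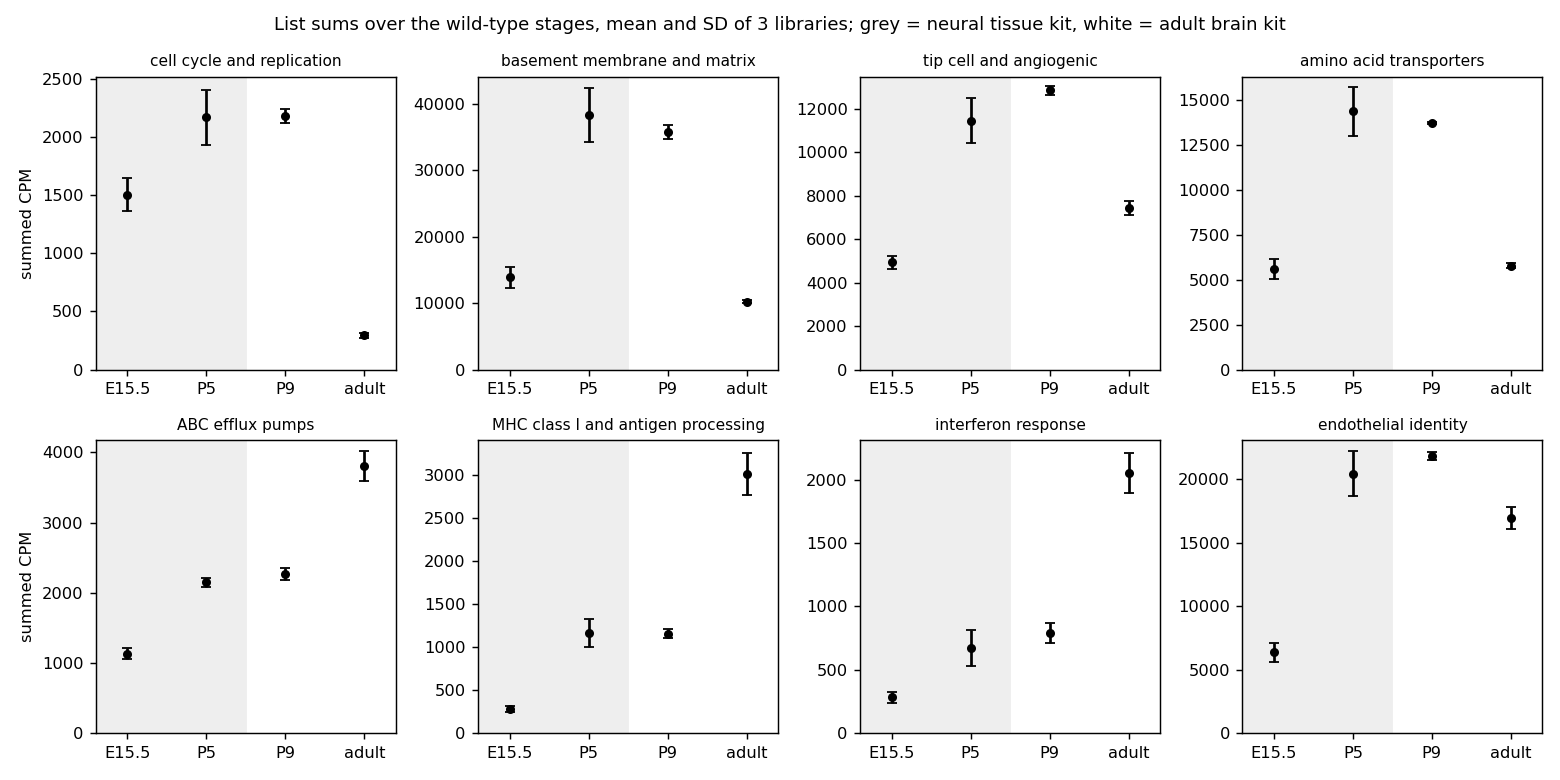
Summed CPM of 8 gene lists at the 4 wild-type stages (points are means of 3 libraries, bars SD), with the neural tissue kit stages on grey and the adult brain kit stages on white. From P9 to adult the cell cycle, basement membrane, tip cell and amino acid sums are lower and the MHC class I and interferon sums higher. The ABC efflux pump sum includes Abca2, a gene of myelinating oligodendrocytes, which weighs heavily in its rise. The rise of most lists from E15.5 to P5 depends on TMM scaling.

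The same P9 to adult step was measured in knockout mice, which carried the Cdh5(PAC)-Cre-ERT2 driver and received the same tamoxifen at each age, in 6 libraries that share none with the wild type. Sox17 was at 354, 335 and 311 CPM in the P9 wild-type and 318, 298 and 274 CPM in the adult wild-type libraries, and in the knockout at 18.9, 23.9 and 27.2 CPM at P9 and 57.3, 22.5 and 78.2 CPM in the adult. All knockout libraries lay below all wild-type libraries, and the deleted part of the gene is not given in the sources used here. The knockout step called 10225 genes (59.6%), 5221 (30.4%) higher and 5004 (29.2%) lower. Of the wild-type rises 4079 (77.1%) also rose in the knockout, 78.1% of its rises, and of the falls 3771 (72.6%) also fell, 75.4% of its falls. The difference between the steps was called for 2269 genes (13.2%), with the wild-type step more positive in 1116 (6.50%) and more negative in 1153 (6.72%). With endothelial scaling, which moved the median of this difference from 0.00 to -0.29, the split was 452 and 2758. In 180 genes the steps were called in opposite directions. The P9 knockout libraries differed most among themselves. Chi-square per degree of freedom between the counts of 2 libraries was 13.75, 32.37 and 63.36 for their pairs. It was 5.27 to 7.19 for P9 wild type, 5.93 to 8.63 for adult wild type and 9.99 to 15.71 for adult knockout.

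All 34 cell cycle genes had a more negative step in the wild type than in the knockout, under either scaling, with a median difference of -1.89 on the log2 scale. In the knockout itself 31 of them fell and 3 were not called, and with endothelial scaling 27 fell and 3 rose. Mki67 went from 193 ± 2.69 to 10.01 ± 1.75 CPM in the wild type and from 55.6 ± 12.2 to 12.1 ± 2.82 CPM in the knockout (difference -2.05, adjusted p = 3.6e-06). Cdk1 went from 47.3 ± 8.43 to 2.18 ± 0.205 CPM in the knockout (difference -1.098, adjusted p = 0.0015). In both the 3 knockout libraries were below the wild type at P9, and the adult ranges of the genotypes overlapped.

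Glucocorticoid-induced genes differed the other way: 17 of 18 had a more positive step in the wild type and none a more negative one (16 and none with endothelial scaling). The knockout P9 libraries held high levels that the adult ones did not. Zbtb16 went from 2.98 ± 0.484 to 9.85 ± 1.25 CPM in the wild type and from 137 ± 7.003 to 9.58 ± 1.22 CPM in the knockout (difference 5.499, adjusted p = 3.4e-09). Hif3a went from 244 ± 19.8 to 9.33 ± 0.626 CPM in the knockout (difference 5.96, adjusted p = 6.1e-10), where the wild type rose from 2.66 ± 0.602 to 6.66 ± 1.94 CPM. Tsc22d3 went from 579 ± 213 to 132 ± 26.9 CPM in the knockout (difference 1.85, adjusted p = 2e-05) and did not pass in the wild type. Immediate early genes differed for 11 of 18, all with the smaller fall in the wild type (7 with endothelial scaling).

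Among barrier genes, Slc2a1 rose in the wild type and fell in the knockout. Slc2a1 was in the knockout at 5538, 5849 and 4925 CPM at P9 and 1911, 2316 and 1693 CPM in the adult, a log2 change of -1.46 where that of the wild type was 0.52 (difference 1.98, adjusted p = 5.5e-08). The 3 knockout P9 libraries lay above the other 9 libraries of these groups. Abcb1a, which rose in the wild type, went from 1086 ± 88.2 to 1088 ± 29.6 CPM in the knockout (difference 0.85, adjusted p = 0.00079). Col18a1 fell in the wild type from 535 ± 2.998 to 50.4 ± 3.51 CPM and in the knockout from 89.97 ± 7.66 to 55.98 ± 5.998 CPM (difference -2.72, adjusted p = 6.3e-09). Angpt2 fell from 650.03 ± 213 to 19.99 ± 2.64 CPM in the knockout (difference 2.77, adjusted p = 9e-06). Of the arterial genes 9 of 21 had a more negative and 2 a more positive step in the wild type (10 and 1 with endothelial scaling), and of the venous genes 8 of 16 had a more positive and 2 a more negative one (7 and 3).

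For the interferon list 1 of 24 genes differed, and for MHC class I 1 of 17, a share below the 13.2% of all genes, though with endothelial scaling 8 of 24 interferon genes did. Basement membrane genes differed for 6 of 19 (7 with endothelial scaling), and Col4a1 was without a call (difference 0.08, adjusted p = 0.89). Ribosomal protein genes differed for 1 of 80, and 9 with endothelial scaling. None of the 9 oligodendrocyte markers differed by edgeR's test, 1 had an unadjusted p under 0.05, and DESeq2 and limma called 0.

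**Figure D5:**
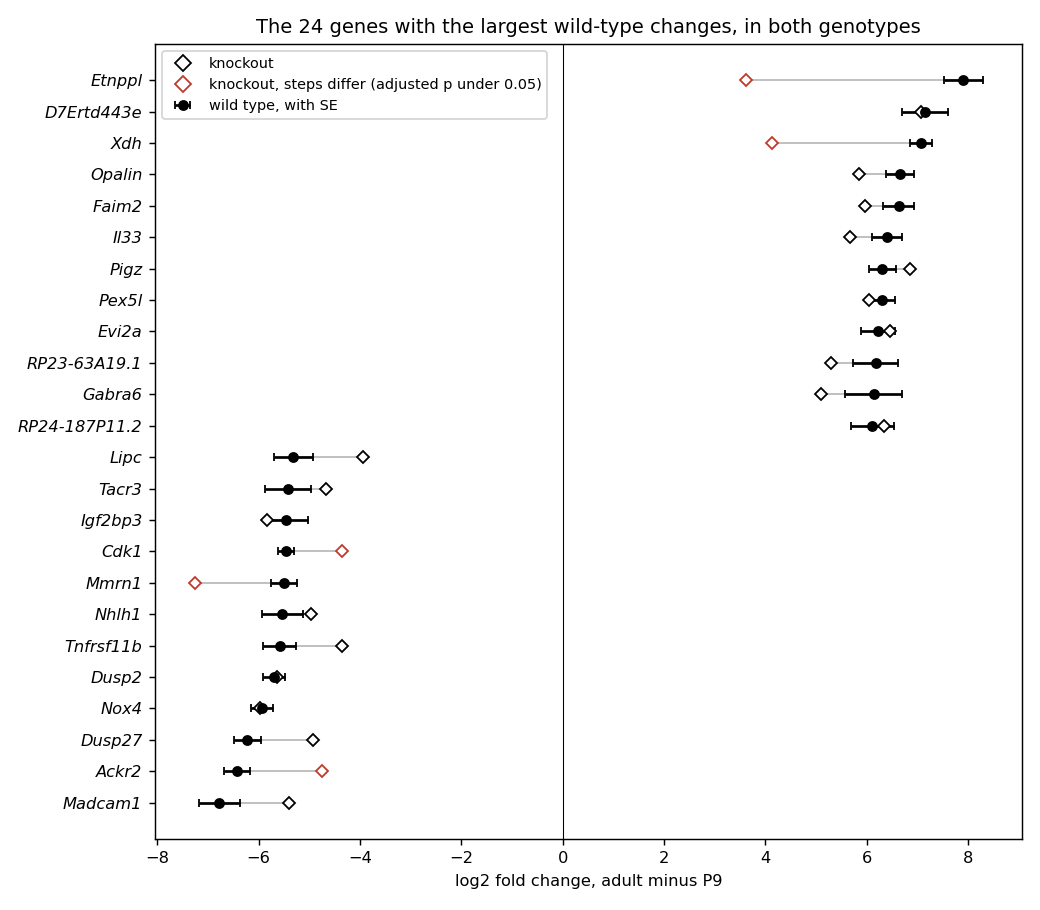
Log2 fold change, adult minus P9, in wild type and knockout for the 24 genes with the largest wild-type changes; red diamonds mark genes whose steps differ between the genotypes. Most pairs lie close together, and Etnppl, Xdh, Ackr2, Mmrn1 and Cdk1 carry red diamonds.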

How the data were processed

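Polyadenylated RNA of CD31-enriched brain cells was sequenced as strand-specific Ion Proton libraries, per the labels' protocols. The deposited tables hold raw counts of reads on 1 strand for 45468 genes on mm10, with the authors' FPKM and TPM columns derived from them. Tools named in the submitters' processing notes were STAR 2.5.3a, SAMtools 1.5, Trim Galore 0.4.1 and FastQC. The annotation release is not given in the sources used here. The counts were tested, the deposited FPKM were used to compare levels between the SoxF genes, and the TPM were not used.

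The test covered 17159 genes whose mean count reached 10 in any of the 8 groups. edgeR 4.0.16 (R 4.3.3) fitted all 24 libraries with 1 mean per group, TMM scaling, a prior count of 2 and 16 residual degrees of freedom. The quasi-likelihood test was two-sided, with Benjamini-Hochberg adjustment over all genes tested. The contrasts were adult minus P9 in wild type, the difference of that step from the knockout's, and P5 minus E15.5 in wild type. Where a group held 3 counts or fewer, a gene is given by ratios of summed counts with an exact 95% counting interval, or as a bound against 3 counts over the group. P-values measure the spread between these samples only.

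The comparison, gene lists and marker lists were chosen with earlier results of these data known, and the labels alone set the libraries. Named were at most 12 genes per direction, ranked by fold change, whose libraries did not overlap and whose higher group mean was at least 50 counts, up to 4 called members per list by fold change, 17 barrier and regulator genes, and other list members where their list is described. The largest changes in CPM were chosen after their values were seen. Some listed genes are not reported here.

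On simulated counts the fit recovered 50.7%, 79.1% and 100% of 67, 67 and 66 genes changed 1.5-, 2- and 4-fold, with 7 false calls of 16959 unchanged genes. Nearly all genes were unchanged in the simulation, in contrast to the real step. It therefore gives no measure of the errors that the choice of scaling can cause. Alternatives were DESeq2 1.42.0 size factors and test, limma 3.58.1 (robust, trend), a fold threshold of log2 1, the compared libraries alone, leaving low counts in, a replicate block, endothelial scaling, and leaving out each library.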

Additional observations from a re-analysis of the deposited data

Results flagged for a closer look

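The 6 results here are given because the wild-type step from P9 to adult differed from the knockout's in the test of the difference itself. They are the count of 2269 genes (13.2% of all tested) and 5 of the 24 genes with the largest wild-type changes. Those 24 were picked by the wild-type step, which is itself part of the difference, so the choice can enlarge it. Etnppl rose in both genotypes, by more on the log2 scale in the wild type, which had 1 count at P9 and 1497 in the adult. The knockout went from 3.52 ± 0.0655 to 44.5 ± 5.16 CPM (difference 4.29 on the log2 scale, adjusted p = 3.8e-06, and 3.70 with endothelial scaling). The size of this difference is uncertain, because the wild-type P9 level rests on 1 count. It compares ratios and not rises in CPM. Xdh rose in the knockout from 7.01 ± 0.554 to 124 ± 10.01 CPM, and the adult levels of the genotypes were close (2.95, adjusted p = 7.8e-08, and 2.59). Ackr2 fell in the knockout from 111 ± 17.1 to 4.03 ± 1.65 CPM (-1.67, adjusted p = 0.0015, and -1.98). Cdk1 fell in the knockout from 47.3 ± 8.43 to 2.18 ± 0.205 CPM (-1.10, adjusted p = 0.0015, and -1.41). Mmrn1 fell in the knockout from 80.7 ± 16.6 to 0.384 ± 0.296 CPM (1.77, adjusted p = 0.025, and 1.47), but its call was lost without adult knockout library 1 (0.052) or 3 (0.062), without adult wild-type library 2 (0.11) or 3 (0.081), and when the 12 compared libraries were fitted alone (0.051). Groups of 3 libraries were too small for a test of single libraries.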

How the results depend on the processing

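For the P9 to adult step, DESeq2 size factors (10421 genes), the DESeq2 test (10529), limma-trend (10558) and no low-count filter (10323) gave counts close to 10485. A fold threshold of log2 1 left 3372 genes for this step (2055 higher, 1317 lower), 210 for the genotype difference (116 and 94) and 3977 from E15.5 to P5 (1755 and 2222). Endothelial scaling gave 2802 lower genes for the P9 to adult step, 452 higher and 2758 lower for the genotype difference, and 541 higher and 14110 lower from E15.5 to P5. Leaving out each library in turn gave 9494 to 9712 genes for the P9 to adult step (4756 to 4884 higher, 4738 to 4851 lower), 1722 to 2376 for the genotype difference (865 to 1185 and 857 to 1254), and 10567 to 11106 from E15.5 to P5 (5775 to 6022 and 4792 to 5084).

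Same-numbered libraries of the ages did not deviate together (r = 0.03, 0.003 and 0.01 across genes), and the labels do not say that the numbers pair the samples. With 3 libraries per group such correlations cannot exclude a shared preparation. A replicate block gave 10544 genes for the P9 to adult step, 2249 for the genotype difference and 11444 from E15.5 to P5. In fits of the compared libraries alone the block gave 11570, 2070 and 10262, and 11707 for the first without it. Of 3225 values of 215 named genes under 15 settings, 3142 kept their direction and side of the threshold, 70 lost the call, 13 gained it and none reversed. Otx2 lost its call without adult library 1 or 3 or P9 library 1 or 2. Endothelial scaling ended the calls of Sox11 and Hbb-bt. The cause of these losses was not tested. Genes with few counts are limited by depth.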

Other observations

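Families outside the lists, chosen after their values were seen, are given as values. The standard proteasome fell for 29 of 31 subunits (17, with 1 rising, with endothelial scaling; median -0.67), while of 5 genes of the immunoproteasome and its activator 3 rose and none fell. Subunits of the initiation factor eIF3 fell for 12 of 12 (9 with endothelial scaling), the chaperonin that folds actin and tubulin for 7 of 7 (5), and translation elongation factors for 5 of 5 under either scaling, with Eef2 going from 2558 ± 103 to 1369 ± 43.5 CPM (log2 -0.902 ± 0.12). Messenger RNAs encoded by the mitochondrial genome rose for 5 of 10 (7 with endothelial scaling), and the 5 became 2 without adult library 3 or P9 library 3.

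Integrins split, 9 of 23 falling and 7 rising, and 8 falling and 12 rising with endothelial scaling. Itgb1, the common beta chain, fell from 838 ± 14.9 to 281 ± 5.62 CPM (log2 -1.58 ± 0.13), as did its partners Itga4 (log2 -3.69 ± 0.14) and Itga5, the fibronectin receptor chain (log2 -2.55 ± 0.099). Itga6, a laminin receptor chain, rose (log2 0.76 ± 0.11), and its other partner Itgb4 rose from 8.601 ± 0.239 to 208 ± 8.25 CPM (log2 4.58 ± 0.24). Of 93 cytochrome P450 genes 28 had enough counts in any of the 8 groups to be tested. Of these 19 rose and 2 fell (21 and none with endothelial scaling), with a median of 0.98. A gene that reached the count limit only through the adult libraries is higher there by this choice. Cyp2e1, for example, had 0 counts at P9 and 72 in the adult. The share is therefore not a result about the whole family.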
